A study of Homo sapiens with 8 samples.

Results

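H19 and a small set of other imprinted genes that regulate growth were followed across a design that crossed an inducible vector with doxycycline. The 9 genes were H19, IGF2, CDKN1C, PEG10, PLAGL1, MEST, MEG3, GRB10 and PHLDA2, and every probe whose platform symbol was one of them was taken, 20 of the 47304 probes on the array. Of these 20 probes, 14 read above background on both arrays of at least 1 group, and they covered 8 of the 9 genes, out of 12385 genes measured in all. The members were chosen by gene name with the readings of these same 8 arrays, in all 4 groups, already known. Their own values are therefore a description, no p-value is attached to them, and a statement that a member passed the threshold only reports what the fit across all genes returned.

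An imprinted gene is expressed mainly from the copy inherited from 1 parent, and many such genes act on fetal and placental growth. H19, a long noncoding RNA, and IGF2, the growth factor next to it, are controlled in opposite parental copies by a shared region that binds the insulator protein CTCF. Maternally expressed members such as CDKN1C, PHLDA2, GRB10 and H19 mostly restrain growth, while paternally expressed members such as IGF2, PEG10 and MEST mostly promote it. In breast cancer cells H19 has been studied both as a growth-promoting RNA and as the precursor of a microRNA.

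The cells were trailblazers, cells with an invasion-leading phenotype from the human breast cancer line SUM159. Each of 4 groups had 2 single-colour Illumina bead arrays at 5 days: empty pLIX vector without treatment, empty pLIX vector with 1 ug/ml doxycycline, ΔNP63α-V5_pLIX without treatment, and ΔNP63α-V5_pLIX with 1 ug/ml doxycycline. All 4 groups therefore carried an integrated doxycycline-inducible vector, which encoded the V5-tagged ΔNP63α isoform of the transcription factor p63 in the ΔNP63α line and no insert in the other. The labels do not say whether a line was a clone or a pool, or whether the replicates were separate cultures, so the spread between arrays may be technical. Induction was not measured here, because the array annotation gave TP63 to 0 probes. The labelled cell type was set against marker lists. All 7 mesenchymal markers, VIM among them, were above background. So were 1 of 5 epithelial (CLDN4), 2 of 4 luminal (GATA3 and FOXA1), 1 of 3 blood (CD14) and 0 of 3 endothelial markers with a probe. CDH1, EPCAM, ESR1, PTPRC and PECAM1 were above it on both arrays of no group.

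The sequences below are from RefSeq, GRCh38.p14, and show the products and the start region that the H19 and GRB10 results refer to. H19 is the host transcript of miR-675, on the minus strand of chromosome 11. Its mature products are given with the seed, bases 2 to 8, in capitals, since a fall of the host RNA concerns the precursor of these microRNAs. No probe carried the symbol of this microRNA, so its level is not given.
hsa-miR-675-5p: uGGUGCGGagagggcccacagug
hsa-miR-675-3p: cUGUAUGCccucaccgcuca

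The 250 bases upstream of the start of H19 (chr11:2001267-2001516, minus strand) and of the outermost start of GRB10 (chr7:50793454-50793703, minus strand) follow, with CpG dinucleotides in capitals, because DNA methylation at CpGs is the mark that separates the parental copies of imprinted genes. These 2 genes were the members with the largest fall and the largest rise on induction for which a window was at hand.
H19 promoter window: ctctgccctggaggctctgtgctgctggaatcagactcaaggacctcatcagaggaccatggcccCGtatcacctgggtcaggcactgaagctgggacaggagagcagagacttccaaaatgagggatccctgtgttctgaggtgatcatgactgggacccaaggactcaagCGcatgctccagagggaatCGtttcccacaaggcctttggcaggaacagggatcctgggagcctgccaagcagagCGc
GRB10 promoter window: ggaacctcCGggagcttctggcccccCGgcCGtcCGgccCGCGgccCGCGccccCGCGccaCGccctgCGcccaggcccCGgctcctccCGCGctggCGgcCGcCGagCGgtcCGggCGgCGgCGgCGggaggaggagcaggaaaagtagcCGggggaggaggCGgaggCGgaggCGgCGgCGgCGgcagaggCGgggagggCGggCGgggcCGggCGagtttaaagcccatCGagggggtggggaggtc

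The H19 window held 4 CpGs and 58.0% G and C, and the GRB10 window held 37 CpGs and 81.6% G and C. Of 35116 windows of this length, 29.3% held fewer CpGs than the H19 window and 96.0% fewer than the GRB10 window, and the median was 11. A scan of both strands for the p53-family half-site, the motif that p63 also binds, found 0 matches in the H19 window and 0 in the GRB10 window, where 5.57% of all windows had at least 1. The CTCF core motif also had 0 matches in both windows and was present in 0.0513% of all windows. The windows at the other GRB10 starts held 40, 19, 2 and 3 CpGs. These counts describe letters in short windows and say nothing about binding elsewhere or about methylation, which was not measured. Windows were found for 5 of the 9 members, 19 windows in all counting alternative starts.

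H19 was dimmest once ΔNP63α was induced, and the uninduced ΔNP63α cells already read below the cells with empty vector. Its single probe (ILMN_2148527) had a deposited intensity of 264.3 and 330.3 on the empty-vector arrays without doxycycline and of 296.7 and 280.2 with it. In the ΔNP63α line it read 254.8 and 213.9 without doxycycline and 140.8 and 130.5 with it. All 8 readings lay above the background level of 114.4, and both induced arrays lay below the other 6. The mean intensities were 297.3, 288.4, 234.4 and 135.7 in that order of groups. The empty-vector groups overlapped, the higher uninduced ΔNP63α array (254.8) lay just under the lowest empty-vector array (264.3), and the induced ΔNP63α arrays stood clear of every other group. Because RNA was taken from whole cultures, fewer H19-expressing cells and less H19 per cell cannot be told apart.

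On the log2 scale used for all tests (background-corrected intensity plus an offset, which understates the change of dim probes), H19 went from 7.56 ± 0.22 without to 6.51 ± 0.12 with doxycycline in the ΔNP63α line (SD, n = 2). That is a fall of 1.05, or -1.05 ± 0.14 (SE), 2.08-fold. With doxycycline in both lines the ΔNP63α cells read -1.42 ± 0.14 against the empty vector, 2.68-fold lower. Before induction the difference between the lines was -0.41 ± 0.14, and doxycycline in the empty vector gave -0.04 ± 0.14, and neither passed the threshold. The first pair of differences share the induced ΔNP63α arrays and are not independent of each other. The doxycycline difference in the ΔNP63α line minus that in the empty vector was -1.01 ± 0.21 and did not pass.

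**Figure D1:**
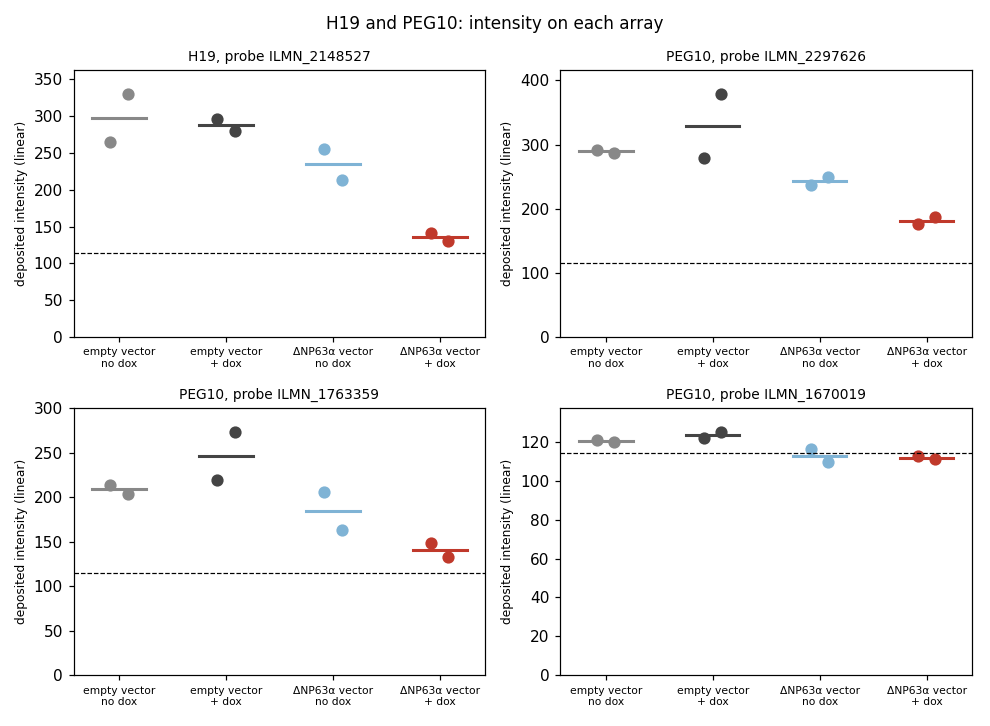
Deposited intensity (linear axis from 0) of the H19 probe and the 3 PEG10 probes in the 4 groups; each point is 1 array, each bar the mean of 2 arrays, and the dashed line the background level of 114.4. The induced ΔNP63α arrays are the lowest for H19, at 140.8 and 130.5, and for both brighter PEG10 probes, and the dimmest PEG10 probe stays near the background level in every group.

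The size of the H19 difference can be placed among all genes. In the ΔNP63α line 0.452% of the 12385 genes had a larger absolute doxycycline difference, and H19 was 18th from the bottom by signed value. With doxycycline in both lines 0.275% of genes had a larger absolute difference between the lines. There H19 ranked 35th, between CCDC9B (-1.42 ± 0.15) and the urea transporter SLC14A1 (1.42 ± 0.11). In the empty-vector line 74.8% of genes had a larger absolute doxycycline difference than H19.

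IGF2, the fetal growth factor encoded beside H19, was not measurable in these cells. Its 3 probes gave 24 readings, of which 2 exceeded the background level, 116.8 and 114.6, both on replicate 1 of the uninduced ΔNP63α cells. Across the induced ΔNP63α arrays the IGF2 readings ran from 99.4 to 111.6. Changes of IGF2 below the background level cannot be seen here. The readthrough transcript INS-IGF2 (2 probes, 96.1 to 107.7) and a probe for MIR483, a microRNA gene within IGF2 (103.1 to 111.8), were also below the level on every array.

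CDKN1C, the cyclin-dependent kinase inhibitor p57, and PHLDA2, a pleckstrin homology domain protein that limits placental growth, lie with H19 and IGF2 on chromosome 11. CDKN1C (ILMN_1718565) was dim, at 120.2 and 119.3 without and 129.1 and 117.3 with doxycycline in the empty vector, and at 121.9 and 126.4 without and 116.4 and 112.2 with it in the ΔNP63α line. The induced arrays were the lowest and 1 of them fell below the background level, but the difference of -0.19 ± 0.11 did not pass. PHLDA2 (ILMN_1671557) was bright. It read 553.9 and 631.0 in the untreated empty vector, 510.4 and 601.6 in the treated empty vector, 521.4 and 689.0 in the uninduced and 529.7 and 672.0 in the induced ΔNP63α cells. All 4 groups overlapped, and the doxycycline difference in the ΔNP63α line was -0.01 ± 0.17.

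Its measured neighbours were also examined. In the RefSeq gene order H19 and PHLDA2 bound a run of 26 protein-coding and long noncoding genes, 8 of which had a probe above background. Beside H19, CDKN1C and PHLDA2 these were ASCL2, CD81, TSSC4, KCNQ1OT1 and SLC67A1 (formerly SLC22A18). Of these 5, limma called 0 in either direction with induction and 0 between the treated lines, where 2.73% and 9.75% of all genes were called. At an unadjusted p under 0.05 there were 2 with induction and 0 between the treated lines, against 1681 and 2933 of all 12385 genes. TSSC4 read -0.24 with induction and -0.38 with doxycycline in the empty vector. The induction differences of the 5 genes ran from -0.34 for KCNQ1OT1, the noncoding RNA that silences the CDKN1C domain on the paternal copy, to 0.13 for SLC67A1. Between the treated lines they ran from -0.02 to 0.28. The nearest measured gene on the other side of H19, MRPL23, read 0.12 ± 0.14 with induction and -0.12 ± 0.14 between the treated lines.

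PEG10, a paternally expressed gene derived from a retrotransposon and needed for the placenta in mice, read low where H19 read low. Its brightest probe (ILMN_2297626) gave 291.5 and 287.1 in the untreated and 278.5 and 378.9 in the treated empty vector, then 237.5 and 249.9 in uninduced and 175.6 and 187.1 in induced ΔNP63α cells. The induced arrays were again the lowest of the 8, the uninduced ΔNP63α arrays were next, and the treated empty-vector pair was widely spread. Between the treated lines the log2 difference was -1.03 ± 0.15, or 2.05-fold lower in ΔNP63α cells, and it passed the threshold. With induction it was -0.54 ± 0.15 and did not pass, and the difference in the empty vector was 0.19 ± 0.15.

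The other probes of PEG10 gave different sizes. ILMN_1763359, annotated to the same transcript as the brightest probe (NM_001040152), gave 213.5 and 203.9, then 218.8 and 273.1 in the empty vector without and with doxycycline, and 205.7 and 163.0, then 148.4 and 132.8 in the ΔNP63α line. Its difference between the treated lines was -1.06 ± 0.16, close to that of the brightest probe. ILMN_1670019, annotated to NM_015068, was near background at 109.5 to 125.1 and below it on both induced arrays, so no fold is given for it. Without empty-vector dox replicate 2, the higher of that pair, the brightest probe's difference was -0.78, and without replicate 1 it was -1.29. The gene next to PEG10 in the RefSeq order, SGCE, which encodes ε-sarcoglycan and is also paternally expressed, differed by -0.46 between the treated lines, of which -0.19 was seen with induction while doxycycline in the empty vector gave 0.33, and the call was lost in 11 of 17 alternatives. On the other side PPP1R9A read 0.04 ± 0.13.

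GRB10, an adaptor protein that binds and dampens the insulin and IGF receptors, was the member that passed as higher with induction, by an amount that depended on the probe. Its brightest probe (ILMN_1669617) gave 644.4 and 700.6 in the untreated and 630.0 and 626.1 in the treated empty vector, and 437.3 and 543.3 in uninduced and 740.4 and 655.6 in induced ΔNP63α cells. The uninduced ΔNP63α arrays were the lowest of all, and the induced arrays read near those of the empty vector. The log2 differences were 0.56 ± 0.13 with induction, -0.50 ± 0.13 between the lines before it and 0.16 ± 0.13 between the treated lines. Of these only the induction difference passed. Doxycycline in the empty vector gave -0.10 ± 0.13, and the induction difference minus that, 0.66 ± 0.18, did not pass.

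The 3 dimmer GRB10 probes read 0.25 ± 0.10 (ILMN_2340919, annotated to NM_005311), 0.16 ± 0.12 (ILMN_1652662, annotated to NM_001001555 as is the brightest) and 0.17 ± 0.10 (ILMN_1667771, annotated to NM_001001550) with induction. With doxycycline in the empty vector the same 3 probes read -0.15 ± 0.10, 0.18 ± 0.12 and 0.05 ± 0.10, so ILMN_1652662 read no higher with induction than with doxycycline alone. Before induction they differed between the lines by -0.14, -0.05 and -0.02, so the low uninduced level was seen mainly with the brightest probe. With the mean of all 4 probes the induction difference was 0.28 and did not pass. Among single arrays left out, the brightest probe passed only without ΔNP63α no-dox replicate 2 (0.73). It did not pass without ΔNP63α no-dox replicate 1 (0.39), nor without the first (0.47) or second (0.65) induced array, nor, at an unchanged 0.56, without any of the 4 empty-vector arrays.

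**Figure D2:**
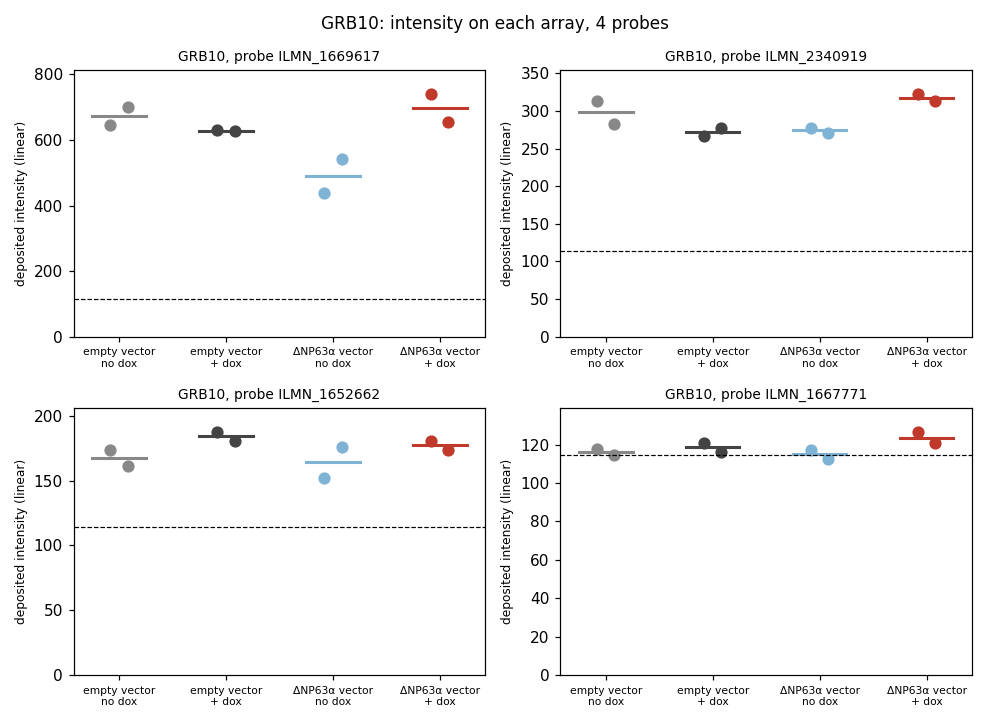
Deposited intensity (linear axis from 0) of the 4 GRB10 probes in the 4 groups; each point is 1 array, each bar the mean of 2 arrays, and the dashed line the background level of 114.4. In the brightest probe the uninduced ΔNP63α arrays, at 437.3 and 543.3, lie below all others, and the dimmer probes do not show that gap.

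MEG3, MEST and PLAGL1 stayed closer to their errors. MEG3, a maternally expressed noncoding RNA with tumour-suppressor activity in several cell types, read 117.8 and 127.6, then 128.8 and 125.3 in the empty vector, and 151.7 and 121.3, then 164.5 and 140.2 in the ΔNP63α line on its brighter probe (ILMN_2061435). The induced arrays lay above both empty-vector pairs, but the uninduced ΔNP63α pair was spread across that range. The differences were 0.24 ± 0.16 with induction and 0.38 ± 0.16 between the treated lines, and neither passed. Without ΔNP63α no-dox replicate 1 the induction difference was 0.48, without no-dox replicate 2 it was -7e-04, and without dox replicate 1 it was 0.08. The untreated lines differed by 0.22 ± 0.16, a value that came to -0.02 or 0.46 when the first or the second uninduced ΔNP63α array was left out. The dimmer MEG3 probe (ILMN_1671149) did not exceed the background level, at 98.5 to 113.2.

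MEST, a paternally expressed enzyme of the α/β hydrolase fold and the host gene of miR-335, was read by 1 of its 3 probes. ILMN_1669479 gave 138.2 and 123.5, then 134.6 and 122.3 in the empty vector, and 137.5 and 142.9, then 146.5 and 150.3 in the ΔNP63α line. The induced arrays were the highest, the lower of them at 146.5 against 142.9 for the next array. The difference between the treated lines was 0.31 ± 0.12, that with induction was 0.12 ± 0.12, and neither passed. The other MEST probes stayed at 99.4 to 114.1, under the background level. The MIR335 probe read 103.8 to 121.6 and was above the level on both arrays of no group. PLAGL1, a zinc finger transcription factor that in mice regulates other imprinted genes, read 152.1 and 159.2, then 155.2 and 142.4 in the empty vector and 167.0 and 162.7, then 171.4 and 150.9 in the ΔNP63α line (ILMN_1815121). Its groups overlapped on induction, at -0.05 ± 0.12, and its second probe (ILMN_2356955) read 0.04 ± 0.13.

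**Figure D3:**
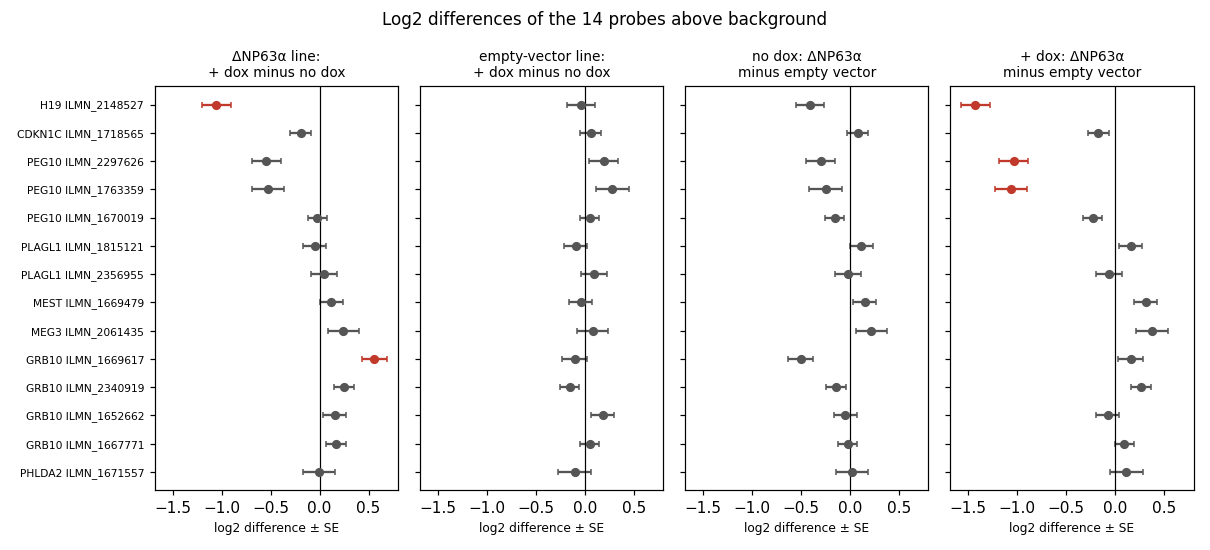
Log2 differences (x axis) with their SE (bars) of the 14 member probes above background, in 4 comparisons of 2 arrays against 2; red marks probes that passed the limma threshold. H19 (-1.05 and -1.42) and both brighter PEG10 probes (-1.03 and -1.06 between the treated lines) stand to the left, the brightest GRB10 probe stands to the right on induction (0.56), and no probe passed with doxycycline in the empty vector or between the untreated lines.

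Counted over genes by the brightest probe, with induction 1 of the 8 measured members passed lower (H19), 1 passed higher (GRB10) and 6 did not pass, where 1.3% of all genes passed lower, 1.43% higher and 2.73% in either direction at a limma adjusted p under 0.05. With doxycycline in both lines 2 passed lower (H19 and PEG10), 0 higher and 6 did not pass, where 5.1% of all genes passed lower, 4.64% higher and 9.75% in either direction. Between the untreated lines 0 of 8 passed, where 0.0484% of all genes did, and on the interaction 0 of 8, where 0.727% did. With doxycycline in the empty vector 0 of 8 members and 0 of all 12385 genes passed in limma (0%), with 543 genes at an unadjusted p under 0.05. As the members were chosen with these contrasts known, nothing is read from their counts. Their median difference was -0.03 with induction and 0.14 between the treated lines, against -0.01 and 0.00 over all genes. The call of H19 held with induction and between the treated lines in all 17 alternatives for each, and that of PEG10 between the treated lines in all 17. The number of genes that passed with induction, 338, fell to 122 without ΔNP63α no-dox replicate 1, 197 without no-dox replicate 2 and 124 without dox replicate 2. The count between the treated lines fell from 1207 to 379 without empty-vector dox replicate 2 and 400 without ΔNP63α dox replicate 2.

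**Figure D4:**
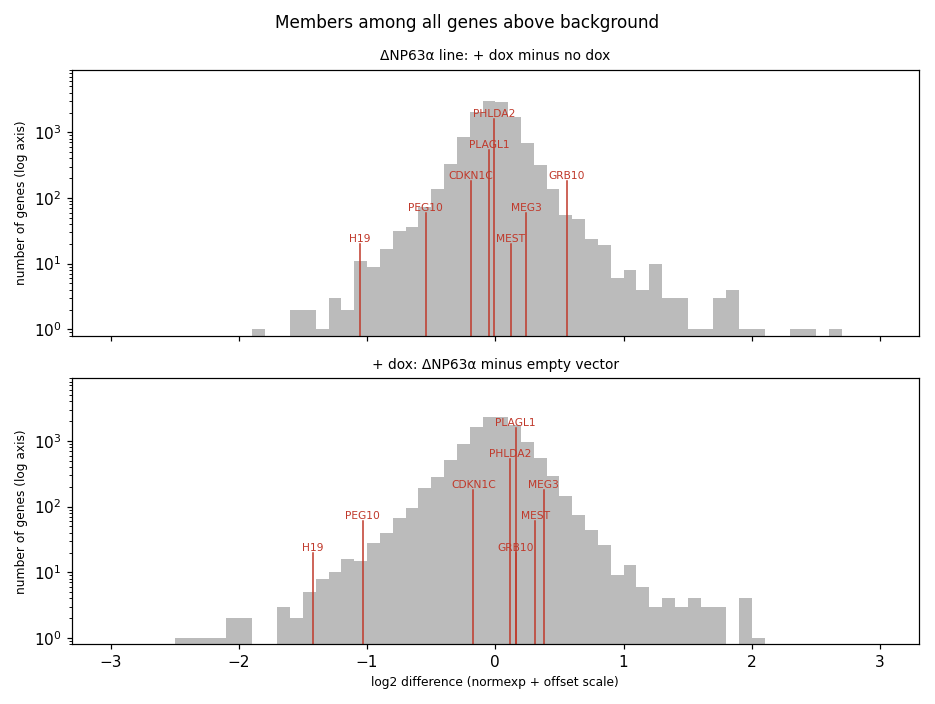
Histogram of the log2 differences of all 12385 genes (grey, bins of equal width, count on a log axis) on induction (top) and between the treated lines (bottom), with the 8 measured members marked by red lines whose height carries no value. H19, at -1.05 and -1.42, lies in the lower tail of both, PEG10 moves into the tail between the treated lines (-1.03), and CDKN1C, PHLDA2 and PLAGL1 lie in the bulk.

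The genes whose pattern over the 8 arrays was closest to that of H19 were named by the smallest root mean square difference of mean-centred log2 values. They were DDAH1, an enzyme that breaks down methylated arginine (0.14), LOXL1, a collagen and elastin cross-linking oxidase (0.16), COL3A1, a fibrillar collagen chain (0.18), EVA1A, a membrane protein linked to autophagy (0.19), and CCDC9B (0.19). The median over all other genes was 0.62. As selected, all 5 read lower on induction, from -1.05 for DDAH1 to -0.78 for CCDC9B. Among the other members PEG10 came closest to H19, at 0.32, and CDKN1C followed at 0.55, while PLAGL1 (0.64), PHLDA2 (0.66), GRB10 (0.70), MEST (0.73) and MEG3 (0.77) were farther from it than the median gene.

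Other imprinted genes passed at about the share of all genes. Of 56 listed genes 33 were measured, 1 rose and 0 fell with induction, 3.03% against 2.73% of all genes. Between the treated lines 2 rose, 2 fell and 29 did not pass, 12.1% against 9.75%, and the median was 0.01. BLCAP, whose intron holds the imprinted gene NNAT, read 434.4 and 501.6, then 394.2 and 414.6 in the empty vector and 444.2 and 450.6, then 754.7 and 633.1 in the ΔNP63α line. The induced arrays were the highest, and BLCAP rose by 0.68 ± 0.12 with induction (limma adjusted p = 0.0116, alternatives from 0.00794 to 0.0913) and stood 0.85 ± 0.12 above the treated empty vector (limma adjusted p = 0.0017). The induction call was lost without either uninduced ΔNP63α array (0.67 without replicate 1, 0.69 without replicate 2) or without the first induced one (0.55).

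CPA4, a carboxypeptidase gene on chromosome 7, as is MEST, gave 317.5 and 390.9, then 419.9 and 615.8 in the empty vector and 428.5 and 352.4, then 250.7 and 240.3 in the ΔNP63α line. It was 1.21 lower on the log2 scale (-1.21 ± 0.19) in the treated ΔNP63α line than in the treated empty vector, with limma adjusted p = 0.00267 and a call in all 17 alternatives. SGCE (-0.46 ± 0.13, limma adjusted p = 0.0435) lost its call in 11 of 17 alternatives. These included the removal of any single array but ΔNP63α dox replicate 1, with values of -0.28 without ΔNP63α dox replicate 2, -0.42 without empty-vector dox replicate 1, -0.51 without empty-vector dox replicate 2 and -0.46 without any of the untreated arrays. IGF2R, the receptor that clears IGF2 (imprinted in mice, variably in humans), was higher by 0.44 ± 0.11 (limma adjusted p = 0.0344). It was not called without empty-vector dox replicate 2 (0.33), ΔNP63α dox replicate 1 (0.43) or dox replicate 2 (0.44), nor, at 0.44, without either untreated empty-vector array (replicate 1 or 2).

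Genes of insulin and IGF signalling were measured for 22 of 30 listed. On induction 1 rose and 0 fell, 4.55% against 2.73% of all genes. That gene was PTPN1, the phosphatase that removes phosphate from the insulin receptor, which went from 1390.4 and 1310.1 to 2349.3 and 1839.8 (0.64 ± 0.13, limma adjusted p = 0.0222). In the empty vector it read 1573.7 and 1468.8 without and 1808.9 and 1617.3 with doxycycline, a difference of 0.17. PTPN1 was called on induction only, not between the treated lines (0.29) or on the interaction (0.47 ± 0.18). Its call was lost without either uninduced ΔNP63α array (0.68 without replicate 1, 0.60 without replicate 2) or without the first induced one (0.46). In the treated lines 3 were higher, 1 was lower and 18 did not pass, 18.2% against 9.75%, with a median of 0.12. The higher genes were the adaptor SHC1 (0.67 ± 0.14, and 0.56 and 0.05 on other probes), the transcription factor FOXO4 (0.63 ± 0.13) and IGF2R. IRS2, a substrate that relays insulin and IGF receptor signals, was lower (-0.64 ± 0.15). Before induction the lines already differed by -0.58 in IRS2, 0.41 in FOXO4, 0.21 in SHC1 and 0.15 in IGF2R, none of them called, and induction gave -0.04, 0.37, 0.39 and 0.22. The limma adjusted p values were 0.0105, 0.0121 and 0.0246 for SHC1, FOXO4 and IRS2. Without empty-vector dox replicate 2 or ΔNP63α dox replicate 2 the calls of SHC1 (0.57 and 0.51), FOXO4 (0.62 and 0.53) and IRS2 (-0.70 and -0.41) were lost, and that of IRS2 also without empty-vector dox replicate 1 (-0.57).

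Regulators of imprinting and proteins that bind H19 or IGF2 RNA were measured for 20 of 30 listed. With induction limma called 0, against 2.73% of all genes (2 at an unadjusted p under 0.05). In the treated ΔNP63α line 1 was higher, 2 were lower and 17 did not pass, 15% against 9.75% of all genes. UHRF1 and DNMT1, which together copy DNA methylation at replication, were lower by -0.90 ± 0.22 and -0.56 ± 0.15 (limma adjusted p = 0.0282 and 0.0414). UHRF1 read 792.0 and 1322.2 on the treated empty-vector arrays against 645.3 and 503.9 on the induced ΔNP63α arrays. DNMT1 read 4222.1 and 4935.9 against 3713.2 and 2617.7. Between the untreated lines DNMT1 already read -0.44 and UHRF1 -0.05, and induction gave -0.14 and -0.54. Doxycycline in the empty vector gave -0.03 for DNMT1 and 0.31 for UHRF1. Another UHRF1 probe read -0.43 between the treated lines. HMGA1, a chromatin architectural protein, was higher (0.51 ± 0.14, limma adjusted p = 0.0378, and 0.22 on another probe). Without empty-vector dox replicate 2 the 3 differences were -0.51, -0.44 and 0.35, and without ΔNP63α dox replicate 2 they were -0.70, -0.30 and 0.52, none of them called. UHRF1 also lost its call without either untreated empty-vector array (replicate 1 or 2, both at -0.90), DNMT1 without each other array but ΔNP63α dox replicate 1 (-0.67 without empty-vector dox replicate 1, otherwise -0.56), and HMGA1 without ΔNP63α dox replicate 1 or either untreated empty-vector array (0.51).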

How the data were processed

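Each of the 8 arrays has a deposited linear intensity for 47304 probes. What software and normalisation the authors used is not given in the sources used here; all arrays shared a median of 113.5, as after quantile normalisation. A second deposited table was not used because its 16 columns of per-sample values match no sample label. Intensities were background corrected with limma 3.58.1 in R 4.3.3 (normexp, offset 50) and log2 transformed, so each log2 value is computed here from what the authors deposited. Kept probes read over 114.4 on both arrays of some group. This level is the mode of the values, 106.9, plus 1.645 times the SD of 4.535 below it. Probe symbols came from the supplied platform annotation, which gave 1 symbol to 30105 probes, several to 8 and none to 17191. The brightest kept probe represented each gene in a limma fit with 1 mean per group over all 8 arrays (4 residual and 7.48 prior degrees of freedom), with Benjamini-Hochberg adjustment over 12385 genes and a two-sided threshold of 0.05. Further probes of a member came from the same fit over all 23086 kept probes. Every adjusted p is limma's. A fold is given as "at least" where both dim arrays were below background, with each dim array raised to its lowest log2 value over background where the probe was under it. The fit was tested on simulated data. Every member was named with every probe, along with up to 4 passing genes per list and comparison and the 5 genes nearest H19 in pattern. Members and lists were chosen with earlier results of these data known. Sequences, gene order and older symbols came from RefSeq tables of GRCh38.p14. Alternatives changed the background correction, normalisation, filter, probe choice, arrays in the fit, variance moderation and replicate block, or left out each array with the probe set kept. The number of arrays limits the precision.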

Additional observations from a re-analysis of the deposited data

Results flagged for a closer look

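Limma called 0.727% of all genes on the interaction, and 2 of the 33 other imprinted genes measured (6.06%). The list of other imprinted genes was chosen with earlier results of these data known, so its calls are not independent tests. For these 2 genes, the effect of doxycycline differed between the ΔNP63α and the empty-vector line by a test of that difference. For BLCAP it was 0.91 ± 0.17 on the log2 scale (limma adjusted p = 0.0381), from 0.68 in the ΔNP63α line and -0.23 in the empty vector, and it passed in 6 of 16 alternatives. Among single arrays left out it passed only without ΔNP63α dox replicate 2 (1.05), and the other 7 gave 0.78 to 1.03. For CPA4 it was -1.37 ± 0.26 (limma adjusted p = 0.0423), from -0.78 and 0.59, and it passed in 8 of 16. Among single arrays left out it passed without empty-vector dox replicate 1 (-1.67) and ΔNP63α no-dox replicate 2 (-1.53), and the other 6 gave -1.54 to -1.06. The treated empty-vector arrays of CPA4 lay far apart, at 419.9 and 615.8. The same difference also passed for 4 genes that were named because their readings on these arrays resembled or ranked beside those of H19. For them too the difference is no independent test. It was -1.11 for DDAH1, -0.87 for COL3A1, -0.95 for EVA1A and 1.40 for SLC14A1. Of the 8 measured members limma called 0 on this difference, where 0.727% of all genes were called. It also called 0 of the 22, 20, 12 and 5 genes measured in the other gene lists.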

How the results depend on the processing

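H19 kept its direction in every alternative with induction, between the treated lines and between the untreated lines, but its size depended on the background correction. With none, the differences were -0.78 with induction and -1.09 between the treated lines, and with normexp and an offset of 16 they were -1.44 and -1.88. With each array left out in turn, H19 ranged from -1.21 to -0.90 with induction, from -1.50 to -1.34 between the treated lines, from -0.60 to -0.22 between the untreated lines and from -0.23 to 0.15 with doxycycline in the empty vector. The H19 interaction passed in 4 of 16 alternatives and the GRB10 induction difference in 5 of 17. The PEG10 induction difference passed in 3 of 17, among them the fit with the replicate block (-0.54).

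Counts of genes that passed moved more. With only the groups compared they were 181 with induction, 718 between the treated lines and 37 between the untreated lines (6 in the reported fit). The last count was 3 with no background correction, 18 with an offset of 16 and 11 with no filter, and the interaction count went from 90 to 59 with no background correction. Leaving out single arrays gave 122 to 340 with induction, 379 to 1158 between the treated lines, 0 to 6 between the untreated lines and 33 to 96 for the interaction. The lowest counts for the untreated lines, 0 and 1, came without empty-vector no-dox replicates 1 and 2. The replicate number as a block gave 500 with induction, 1659 between the treated lines, 27 between the untreated lines and 155 for the interaction. The labels do not say what the number stands for. Its 6 correlations of deviations between groups ran from 0.0387 to 0.421, the highest between the groups of the ΔNP63α line. Since 2 of them were under 0.1, the number was not taken to pair the arrays. Both of these were between the untreated empty vector and a ΔNP63α group, and the empty-vector groups gave 0.216. The block changed no member's call apart from PEG10 on induction and H19 on the interaction.

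Probes under the background level, IGF2 among them, cannot show changes.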

Other observations

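Measured CDK inhibitors and G1 cyclins, the relatives and partners of CDKN1C, numbered 12. With induction limma called 0 of them, against 2.73% of all genes (3 at an unadjusted p under 0.05). Between the treated lines 1 was called as higher, 8.33% against 9.75% of all genes. It was CDKN2A, the gene of the inhibitor p16, which read 109.4 and 112.2 on the treated empty-vector arrays, below background, and 140.1 and 156.6 on the induced ΔNP63α arrays. The untreated empty-vector arrays read 120.5 and 115.7, and the uninduced ΔNP63α arrays 128.5 and 128.6. With induction CDKN2A differed by 0.30, with doxycycline in the empty vector by -0.15 and between the untreated lines by 0.19, none called. Between the treated lines CDKN2A was at least 1.48-fold higher on the background-corrected scale (limma adjusted p = 0.00446). That size depends on the correction, the log2 difference being 0.64 with it and 0.42 with no background correction, and the gene was called in all 17 alternatives.

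All 5 pleckstrin homology-like relatives of PHLDA2 were measured. With induction limma called 0, against 2.73% of all genes (1 at an unadjusted p under 0.05). Between the treated lines 2 were lower, 40% against 9.75% of all genes. PHLDB2, a microtubule-anchoring protein of the cell cortex, was at -0.63 ± 0.12 (limma adjusted p = 0.00881, and -0.46 on another probe), and lost its call without empty-vector dox replicate 1 (-0.49). PHLDA1 was at -0.64 ± 0.17 (limma adjusted p = 0.0393), while another probe read 0.14, and it was called in 7 of 17 alternatives. Its call was lost without either treated array of either line (-0.71 to -0.58) and, at -0.64, without either untreated empty-vector array. PHLDA1 read 1997.8 and 1641.1 in the untreated empty vector and 859.3 and 1296.2 in the uninduced ΔNP63α line, so the uninduced ΔNP63α arrays were already low.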
